A study of Mus musculus with 77 samples.

Results

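Ganglion cell genes were followed through the days of murine oxygen-induced retinopathy (OIR). The set comprised 10 genes whose transcripts mark retinal ganglion cells, namely Thy1, Nefl, Nefm, Nefh, Sncg, Rbpms, Pou4f1, Pou4f2, Slc17a6 and Isl2. Every non-control probe whose transcript identifier belonged to one of these symbols was taken, which gave 13 of the 55681 non-control probes of the array and 10 of the 21154 genes with a symbol. Nefh was covered by 2 probes, Rbpms by 3 probes and each other gene by 1 probe. A gene with several probes is described by the one with the brightest mean retina signal, and the others are given where they differ.

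The retinas came from C57BL/6 mice. Whole litters with their mothers were kept from postnatal day 7 (P7) to P12 in 75% oxygen (OIR group) or 21% oxygen (control group), and were in room air afterwards. Retinas were taken on P12 (13 OIR and 12 control mice), P17 (13 and 12) and P28 (13 and 14), both retinas of a mouse were pooled, and each of the 77 arrays held 1 mouse against a common mouse reference RNA. Oxygen was assigned by litter, so that mice of 1 litter are not independent of each other, and nothing was used here that ties mice to litters.

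Ganglion cells are the output neurons of the retina and send their axons through the optic nerve to the brain. Their bodies lie at the inner surface, next to the superficial vessels that are lost under high oxygen in this model and that later regrow in an abnormal form. Large axons are filled with neurofilament, a polymer of light, medium and heavy chains, while POU and LIM homeodomain factors establish and maintain ganglion cell identity. In whole retina, fewer ganglion cells and less RNA per ganglion cell cannot be told apart.

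The principal readout was the log2 ratio of retina over reference after background correction with an offset and loess within each array, called the log2 ratio below. The labels give Cy5 for the retina, but the rod genes Pde6b, Gnat1 and Sag had the stronger signal in Cy3 on each of 77 arrays, by at least 4.18 on the log2 scale. All ratios are therefore Cy3 over Cy5, which is opposite to the dyes in the labels, and a positive value means more transcript in retina than in reference. The second readout was the retina channel alone, as log2 of the quantile-normalised Cy3 signal. Differences between groups were tested with limma and adjusted over all 55681 probes with Benjamini-Hochberg, and a probe was called at an adjusted p under 0.05.

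The set was expressed in these retinas. In the retina channel, 9 of the 10 genes had their brightest probe well above background on at least 74 of 77 arrays and a positive log2 ratio on every array. Rbpms was the exception in its ratio, which lay below 0 on all 77 arrays (highest -0.01) although its retina signal was above background on each of them. The reference was often dim for the same probes: Nefl was above background in the reference channel on 31 arrays, Nefm on 17, Isl2 on 15, and Pou4f2 and Slc17a6 on 0. For these genes the ratio rests on the retina signal and the offset, and the retina channel is given beside it.

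Array brightness, counted as the probes whose Cy3 signal stood well above its background, differed between days. Its median was 20050 to 21100 in the groups of P12 and P17, and 32170 and 32885 in the control and OIR groups of P28. On P17 the control arrays ranged from 13765 to 27910 (median 20847) and the OIR arrays from 15895 to 29993 (median 20285), so the oxygen groups of that day overlapped nearly throughout. Brightness moved with most members within the groups, as given below, and was therefore also entered as a covariate.

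**Figure D1:**
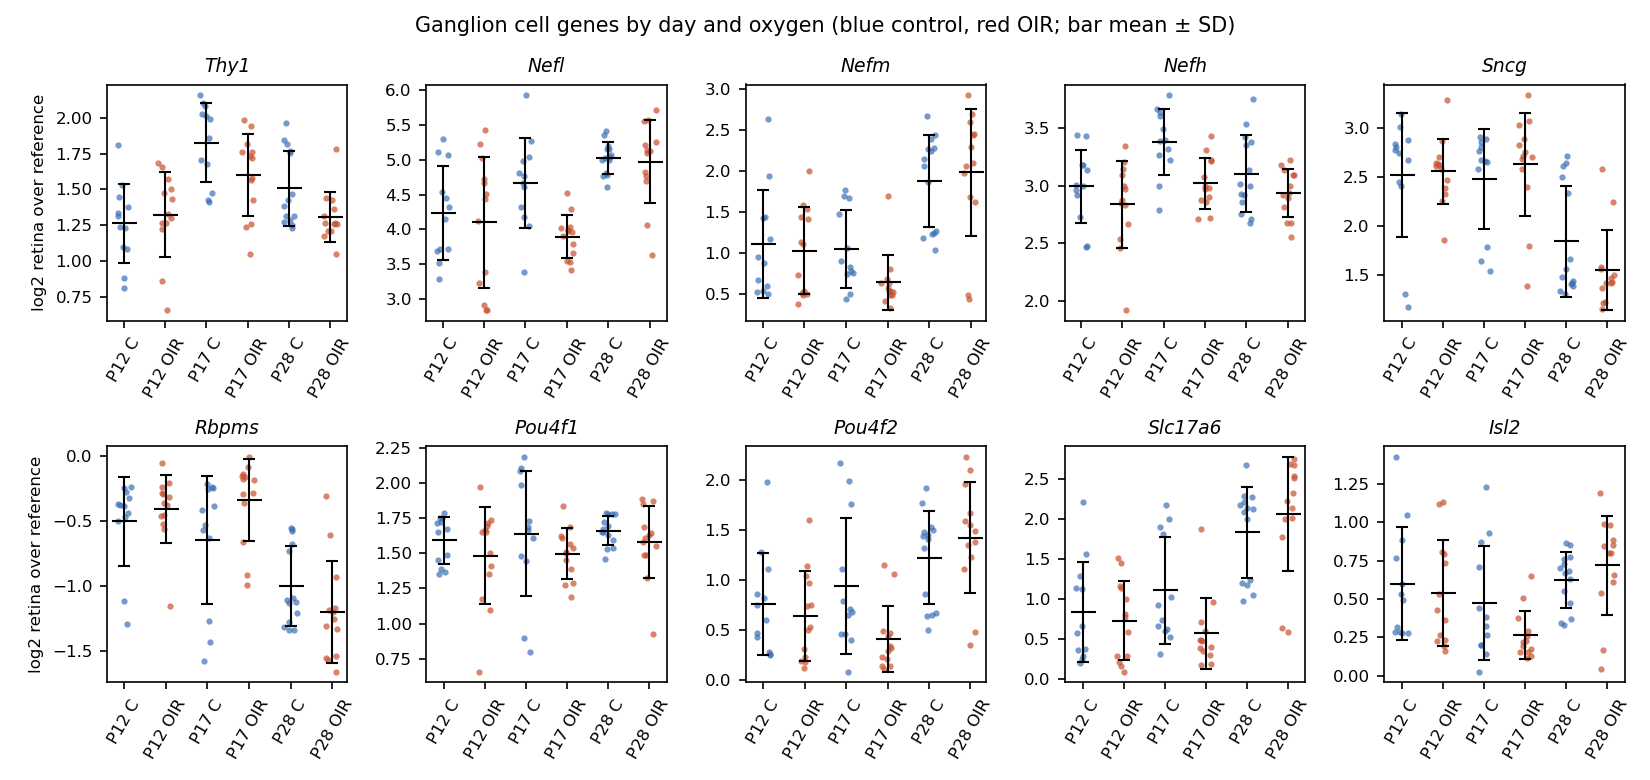
Each panel shows the log2 ratio of retina over reference for 1 gene, with 1 point per mouse, control in blue and OIR in red, and a bar for the mean ± SD. Nefl had the widest gap between the P17 groups, Thy1 was higher in P17 than in P12 control mice, and Sncg was lower in control mice of P28 than in those of P17.

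The RefSeq tables used here (GRCm38.p6) place the light and medium neurofilament genes on the same chromosome, Nefl at chr14:68083863-68089095 and Nefm at chr14:68119545-68125004. Sncg and Pou4f1 lie on the same chromosome, at chr14:34370274-34374669 and chr14:104461675-104468118, while Nefh is at chr11:4938754-4948064, Thy1 at chr9:44043384-44048579, Isl2 at chr9:55538677-55547667, Pou4f2 at chr8:78433009-78436647, Rbpms at chr8:33782643-33929922 and Slc17a6 at chr7:51621830-51671126. The 250 bases upstream of a transcription start were on hand for 5 members. They are printed for Slc17a6 and Pou4f2, whose signals rose and fell together between mice, and for Sncg, which ran opposite to them; capitals mark TAAT, the core letters bound by many homeodomain proteins, on either strand. The windows are chr7:51621580-51621829 on the plus strand, chr8:78436648-78436897 on the minus strand and chr14:34374670-34374919 on the minus strand.
Slc17a6: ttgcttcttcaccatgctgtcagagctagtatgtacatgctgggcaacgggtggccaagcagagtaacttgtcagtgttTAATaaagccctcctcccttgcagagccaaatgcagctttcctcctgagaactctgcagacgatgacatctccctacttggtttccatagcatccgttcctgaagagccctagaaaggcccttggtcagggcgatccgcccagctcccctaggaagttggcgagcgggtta
Pou4f2: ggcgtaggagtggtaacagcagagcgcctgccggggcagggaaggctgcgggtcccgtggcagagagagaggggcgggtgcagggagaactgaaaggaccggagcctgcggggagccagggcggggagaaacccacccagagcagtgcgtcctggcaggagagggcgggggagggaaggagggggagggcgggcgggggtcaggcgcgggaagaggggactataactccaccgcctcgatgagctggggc
Sncg: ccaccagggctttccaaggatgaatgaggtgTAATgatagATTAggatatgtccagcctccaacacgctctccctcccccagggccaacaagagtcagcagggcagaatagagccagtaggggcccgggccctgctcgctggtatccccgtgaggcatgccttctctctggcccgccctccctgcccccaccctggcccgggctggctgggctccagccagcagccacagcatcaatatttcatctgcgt
TAAT occurred 1 time before Slc17a6, 0 times before Pou4f2 and 2 times before Sncg, against at least 1 occurrence in 54.9% of the 32851 promoters of the same length. CAGCTG, searched on both strands as well, occurred in none of these 3 windows and in 13% of all promoters. The table gives a second start for Slc17a6, whose window (chr7:51624387-51624636, plus strand) is not printed and holds 4 occurrences of TAAT, overlapping ones included, and 1 of ATAATTAA, which 1.09% of all promoters hold. A match is a description of the letters in the window only.

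No member was called between OIR and control mice at the end of the oxygen exposure. On P12, 0 of 13 probes were called by limma, 0 reached an unadjusted p under 0.05, and differences of the log2 ratio ranged from -0.16 for Nefh to 0.10 for Rbpms. Of all probes, 0.0233% were called on that day and 3.12% reached an unadjusted p under 0.05. The retina channel alone also gave 0 calls among the members, against 0.0736% of all probes, with differences between -0.07 and 0.14. The 95% interval for Thy1, a membrane glycoprotein abundant on ganglion cells, was -0.17 to 0.29, and that for Slc17a6 was -0.56 to 0.34.

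On P17, the neurofilament genes, Pou4f2 and Slc17a6 were lower in OIR retinas, Nefl in both readouts and the others in the retina channel. In the log2 ratio, 1 of 13 member probes was called, Nefl, against 1.13% of all probes called in either direction and 0.33% called lower. With the retina channel alone, 5 probes were called, all lower, against 3.1% of all probes in either direction and 1.47% lower. These were the brightest probes of Nefl, Nefm, Nefh, Pou4f2 and Slc17a6. The same 5 were called when brightness was added as a covariate to the fit of the log2 ratio, an alternative chosen after seeing the data, in which 3.85% of all probes were called.

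Nefl encodes the light chain, the core subunit around which neurofilaments assemble. Its log2 ratio in control mice of P17 was 3.38 at the lowest, 4.72 at the median and 5.93 at the highest (mean 4.67 ± 0.65, SD, n = 12), and in OIR mice 3.41, 3.96 and 4.52 (mean 3.89 ± 0.31, SD, n = 13). Every one of the 13 OIR values was under the control median, but inside the control range. The difference was -0.77 (SE 0.19, 1.71-fold lower, limma adjusted p = 0.0481).

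That call was marginal and did not survive most omissions of 1 array. The adjusted p of Nefl rose to 0.05 or more in 20 of 25 fits with 1 array left out, and reached 0.0966, while its difference stayed between -0.89 and -0.66. One fit of all 6 groups gave an adjusted p of 0.111. The call was kept without the OIR mouse retina_210 or without the control mouse retina_8, retina_76, retina_202 or retina_254, and was lost without any 1 of the other 20 arrays. Read from the retina channel alone, Nefl fell by 0.60 on the log2 scale (SE 0.12, adjusted p = 0.00308), with control signals of 10.93 to 12.17 (median 11.52) and OIR signals of 10.27 to 11.21 (median 10.92). The deposited ratio, which has no offset, gave 0.15 for Nefl (adjusted p = 0.91), with its sign turned.

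Nefh, the heavy chain that is enriched in large-calibre axons, had the lowest adjusted p of the 13 member probes on P17 in the retina channel. Its signal was 10.73 at the lowest, 11.22 at the median and 11.51 at the highest in control mice, and 10.34, 10.60 and 10.87 in OIR mice, so that only the edges of the groups overlapped. It fell by 0.54 (SE 0.07, 1.46-fold lower, adjusted p = 2.78e-05), and all 13 OIR mice were below the control median. In the log2 ratio the difference was -0.36 (adjusted p = 0.0876), and with the slide as a block -0.34 (adjusted p = 0.0105). Nefh was also called in the log2 ratio without the control mouse retina_8 or retina_76. The second, dimmer Nefh probe had differences of -0.28 in the ratio (adjusted p = 0.391) and -0.19 in the retina channel (adjusted p = 0.514). The deposited ratio of the brighter probe was 0.04 (adjusted p = 0.974).

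Nefm, the medium chain, had a retina channel signal of 7.38 to 8.04 in control mice (median 7.66) and of 7.10 to 7.92 in OIR mice (median 7.29). It fell by 0.35 (SE 0.08, adjusted p = 0.0116), and 12 of 13 OIR mice were below the control median. In the log2 ratio the difference was -0.41 (adjusted p = 0.318). Nefm was the 1 member called in the deposited ratio, at -0.89 (adjusted p = 0.0044), where 2.64% of all probes were called.

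Slc17a6 encodes the vesicular glutamate transporter VGLUT2, with which ganglion cells load their synaptic vesicles. Its retina channel signal was 7.31 to 7.99 in control mice (median 7.72) and 6.46 to 7.89 in OIR mice (median 7.11), and 12 of 13 OIR mice were below the control median. It fell by 0.54 (SE 0.12, 1.45-fold lower, adjusted p = 0.00662). The log2 ratio differed by nearly the same amount, -0.54, with a standard error of 0.22 and an adjusted p of 0.354.

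Pou4f2 (Brn3b), a POU homeodomain factor needed for ganglion cell differentiation, had signals of 7.04 to 7.94 in control mice (median 7.46) and of 6.46 to 7.31 in OIR mice (median 6.82). It fell by 0.56 in the retina channel (SE 0.12, 1.47-fold lower, adjusted p = 0.00426), and all 13 OIR mice were below the control median. Its log2 ratio differed by -0.52 (adjusted p = 0.322). Leaving out any 1 of the 25 arrays of P17 kept Nefl, Nefm, Nefh, Pou4f2 and Slc17a6 called in the retina channel, with the highest adjusted p at 0.0238 for Nefm.

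**Figure D2:**
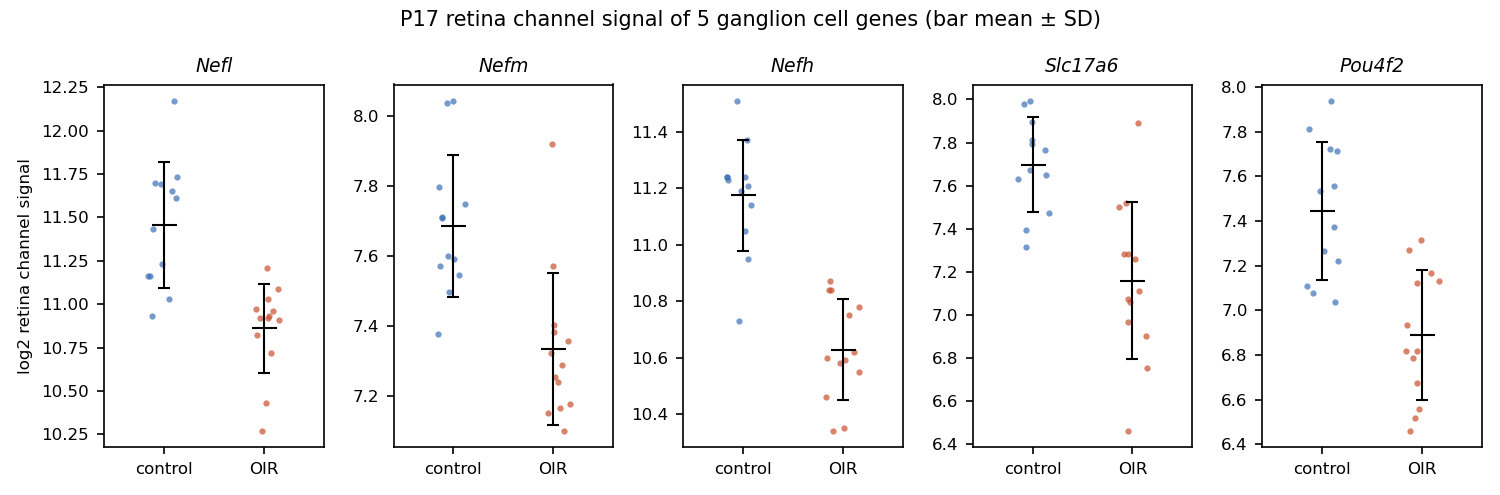
The log2 retina channel signal of 5 genes on P17 is plotted with 1 point per mouse, for 12 control and 13 OIR mice, with the mean ± SD as a bar. The OIR points of Nefh lie between 10.34 and 10.87 and those of the control mice between 10.73 and 11.51.

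The other transcription factors of the set were not called. Pou4f1 (Brn3a) had a P17 difference of -0.14 in the log2 ratio (95% interval -0.41 to 0.12, adjusted p = 0.714) and of 0.06 in the retina channel (-0.14 to 0.26, adjusted p = 0.875). Isl2, a LIM homeodomain factor of a subset of ganglion cells, differed by -0.21 (adjusted p = 0.524) and -0.14 (adjusted p = 0.533). Whether the P17 difference itself differed between Pou4f2 and either factor was not tested.

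Nor were the other 3 genes called in either readout. Thy1 differed by -0.22 in the log2 ratio (adjusted p = 0.486) and by -0.30 in the retina channel (adjusted p = 0.15), where all 13 OIR mice were below the control median. It was called in the retina channel with the slide as a block (-0.30, adjusted p = 0.0324) and with brightness as a covariate (-0.33, adjusted p = 0.0333). Sncg, the gamma-synuclein of ganglion cell bodies and axons, differed by 0.15 (95% interval -0.26 to 0.56, adjusted p = 0.81) and 0.02 (adjusted p = 0.988). Rbpms, an RNA-binding protein used as a pan-ganglion-cell label, differed by 0.31 (adjusted p = 0.521) and 0.28 (adjusted p = 0.393), and its 2 dimmer probes had negative differences.

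The reference channel was put through the same test, and 0 of the 13 member probes were called on P17 there (lowest adjusted p = 1). The differences in that channel were negative for 12 of 13 probes, with a median of -0.02, and 1, Nefl (-0.06), reached an unadjusted p under 0.05. The lowest was that of the brighter Nefh probe at -0.28, from a mean of 6.80 in control to one of 6.53 in OIR mice. Of the 11 slides, 6 held both oxygen groups of P17. They hold the same arrays that gave the calls, so their signs are a description and no separate support. On all 6 the OIR mean was below the control mean for Nefl, Nefm, Nefh, Pou4f2 and Slc17a6, in the log2 ratio as in the retina channel. In the retina channel this was also so for Thy1 and the dimmer Nefh probe, which that readout did not call. Within-slide differences in the retina channel ran from -0.86 to -0.31 for Nefl, from -0.60 to -0.38 for Nefh, from -0.60 to -0.06 for Nefm, from -0.91 to -0.22 for Pou4f2 and from -0.79 to -0.21 for Slc17a6.

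**Figure D3:**
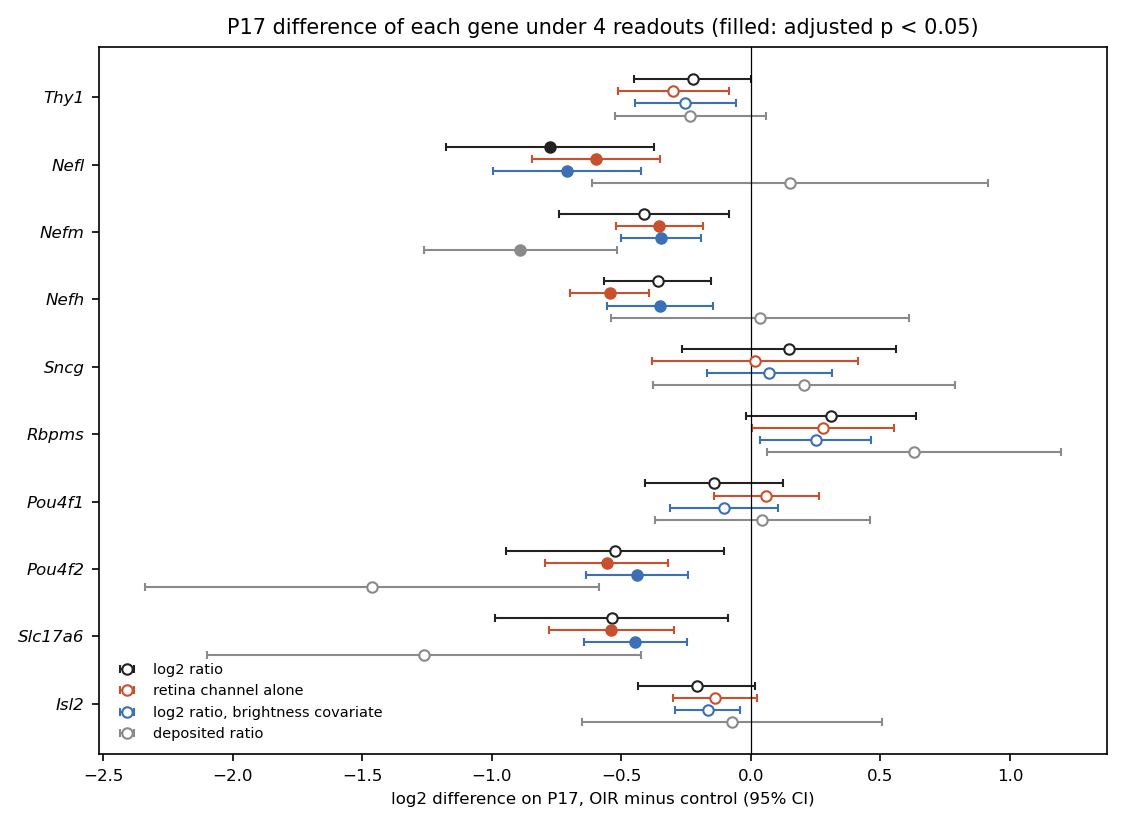
Points give the P17 difference, OIR minus control, on the log2 scale with its 95% confidence interval for the 10 genes under 4 readouts, and filled points have a limma adjusted p under 0.05. Nefl, Nefm, Nefh, Pou4f2 and Slc17a6 are filled in the retina channel and in the log2 ratio with brightness as a covariate, while the deposited ratio fills Nefm alone.

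A further list of ganglion cell genes was described in the same way. Like the members, this list and those below were chosen with earlier results of these data known. Their counts beside the share of all probes are a description and not a test of the lists. Of 27 further ganglion cell genes, 2 were called lower and 0 higher in the log2 ratio, where 0.33% of all probes were called lower. The difference was negative for 24, and the median was -0.29 against 0.001 over all probes. The 2 called were Nrn1 (-0.45, adjusted p = 0.013), a neurite-promoting surface protein, and the transcription factor Ebf1 (-0.28, adjusted p = 6.36e-05). From the retina signal 6 of the 27 were called lower and 0 higher, with a median of -0.20, against 1.47% of all probes called lower. The largest falls were Cplx1 (-0.67, adjusted p = 0.0057), a complexin of synaptic terminals, and Nrn1 (-0.59, adjusted p = 0.000781).

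In the log2 ratio, where 0.33% of all probes were called lower, 12 axon cytoskeleton genes and relatives of the synuclein and glutamate transporter members gave 0 higher and 2 lower calls. These were Stmn3 (-0.57, adjusted p = 0.0132), a microtubule-destabilising stathmin, and Tubb2a (-0.38, adjusted p = 0.0164), a beta-tubulin. By the retina channel, 5 of the 12 were called lower and 1 higher, against 3.1% of all probes in either direction and 1.47% lower. The 1 called higher was Prph (0.34, adjusted p = 0.031), which encodes the intermediate filament peripherin.

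A list of genes known to be induced in injured ganglion cells was read beside them. Of 15, 2 were called higher and 0 lower in the log2 ratio, namely Tnfrsf12a (0.96, adjusted p = 0.0415), the receptor of TWEAK, and Jun (0.67, adjusted p = 0.000415), an AP-1 factor of the axon injury response, and the median was 0.16. Of all probes, 1.13% were called in this readout, 0.33% lower and the remainder higher. In the retina channel 6 of the 15 were called higher and 0 lower. Of all probes, 3.1% were called there, 1.47% lower and the remainder higher. Ecel1 was at 1.01 (adjusted p = 1.53e-05) and Tnfrsf12a at 0.97 (adjusted p = 3.97e-06). The 15 genes of this list are not confined to ganglion cells.

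Several lists for other retinal cells had P17 medians near those of the ganglion cell lists. Amacrine genes had a median log2 ratio difference of -0.29 (1 of 10 called, lower), bipolar genes of -0.32 (0 of 8), Mueller glia genes of -0.34 (0 of 6), rod genes of 0.03 (0 of 7), cone genes of -0.01 (0 of 6) and horizontal cell genes of 0.004 (0 of 5). In the retina channel, where 1.47% of all probes were called lower, so were 3 of 8 bipolar (median -0.31), 2 of 6 Mueller glia (median -0.33), 2 of 10 amacrine (median -0.22), 3 of 5 pigment epithelium (median -0.49) and 1 of 5 lens genes, and 0 of 5 horizontal, 0 of 6 cone and 0 of 7 rod genes, although all 7 rod differences were negative. Calls below 0 in that readout were thus made for several retinal cell types beside ganglion cells. In the log2 ratio 2 of 6 microglial, 2 of 4 astrocyte, 1 of 6 mural, 0 of 6 endothelial and 0 of 4 T lymphocyte genes were called higher, and by the retina signal 3 of 6, 2 of 4, 3 of 6, 1 of 6 and 0 of 4, with Gfap, the filament of reactive glia, at 0.97 in the ratio (adjusted p = 1.18e-06). Of all probes, 1.13% were called in either direction in the log2 ratio and 3.1% in the retina channel. Lower calls made up 0.33% and 1.47% of all probes in these readouts, and the remainder were higher. Of pigment epithelium and lens genes 1 of 5 each was called lower in the log2 ratio, against 0.33% of all probes. They were Rpe65, the visual cycle isomerase (-0.81, adjusted p = 0.0322), and Bfsp2, a lens filament protein (-0.31, adjusted p = 0.0159). The summed retina signal of Mueller glia genes was 14.10 to 14.43 in control and 13.47 to 14.27 in OIR mice on the log2 scale, and that of the 10 members 13.25 to 14.08 and 12.96 to 13.66.

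Myelin genes were taken as markers of optic nerve tissue, which could enter the dissection. Of 8 oligodendrocyte genes 0 were called in the log2 ratio on P17, with a median of 0.02, and their summed retina signal on the log2 scale was 10.65 to 12.44 in control and 10.44 to 12.94 in OIR mice. Mbp, myelin basic protein, was called lower in the retina channel (-0.26, adjusted p = 0.0285). The part that other cells or nerve tissue have in the P17 differences of the members was not tested.

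**Figure D4:**
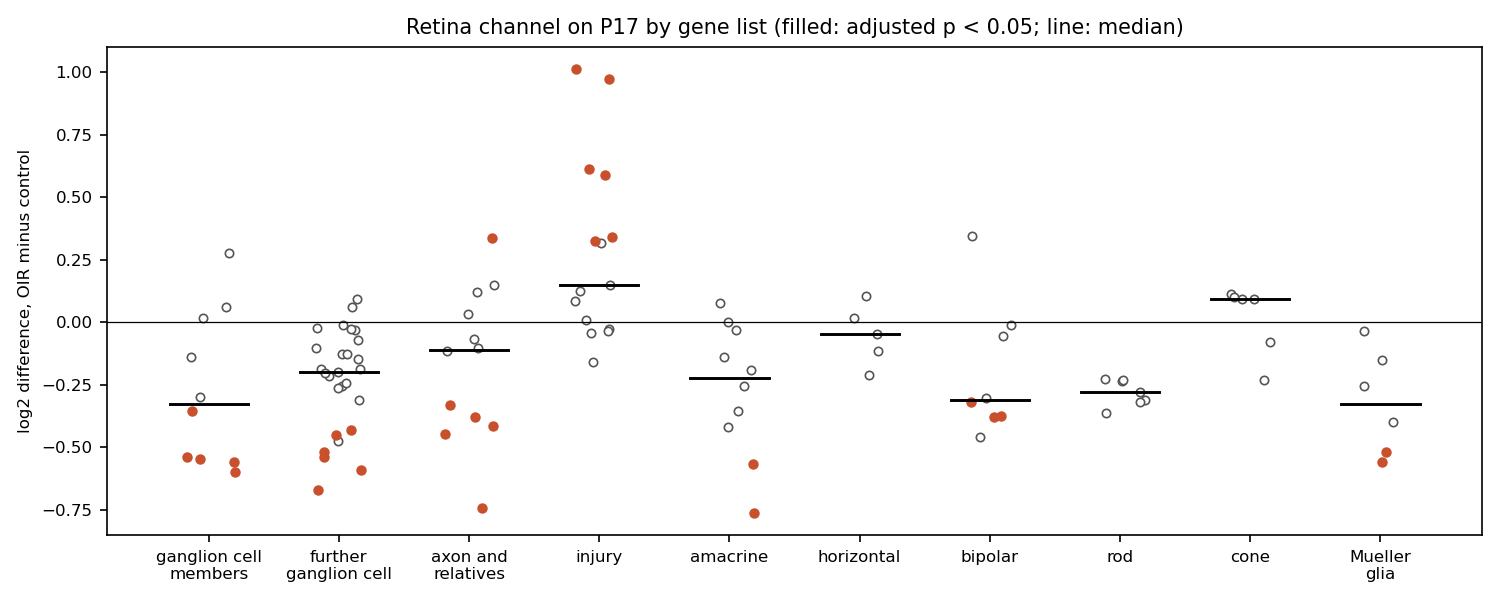
Each point is the P17 difference of 1 gene, OIR minus control, in the log2 retina channel signal, grouped by list, with filled points for a limma adjusted p under 0.05 and a line for the median. The lists of ganglion cell genes have 5 of 10 and 6 of 27 genes filled, all below 0, the bipolar, Mueller glia and amacrine lists have 3 of 8, 2 of 6 and 2 of 10 filled, all below 0 too, and the injury list has 6 of 15 filled, all above 0. Of all probes, 3.1% were called in either direction, 1.47% lower and the remainder higher.

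On P28 the members were again not called. By limma, 0 of 13 probes were called in the log2 ratio, and 1, Thy1, reached an unadjusted p under 0.05, against 0.0611% and 7.44% of all probes. Differences ranged from -0.29 for Sncg to 0.24 for Slc17a6, and the retina channel also gave 0 calls, against 0.296% of all probes, with Nefl at -0.01 (adjusted p = 0.958). Only 3 slides held both oxygen groups of P28.

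Whether the OIR effect changed between days was tested as a difference of differences. In the log2 ratio 0 of 13 probes were called for the step from P12 to P17, where 0.48% of all probes were called, with 0 members and 4.86% of all probes at an unadjusted p under 0.05. For the step from P17 to P28 0 were called as well, against 0.278% of all probes, with 4 members and 14% of all probes at an unadjusted p under 0.05. Read from the retina channel, the effect on the brighter Nefh probe moved by -0.47 from P12 to P17 (adjusted p = 0.00829, 1.76% of all probes called). From P17 to P28 it moved by 0.54 (adjusted p = 0.00208, 1.04% of all probes called). The dimmer Nefh probe was not called for either step. Its control means in this channel were 7.549 (P12), 7.785 (P17) and 7.872 (P28), against OIR means of 7.626, 7.593 and 7.734. The reference signal of the brighter probe also changed from P17 to P28, though without a call. Its mean went from 6.805 to 7.12 in control mice and from 6.529 to 7.228 in OIR mice. Pou4f2 moved by 0.64 from P17 to P28 in the retina channel (adjusted p = 0.0485). With brightness added there as a covariate, it moved by 0.53 (adjusted p = 0.0537). For Nefl, Nefm and Slc17a6 the change of effect was not called in the log2 ratio or the retina channel.

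The control mice alone show how the genes changed with age. From P12 to P17, 1 of 13 member probes was called in the log2 ratio, against 1.28% of all probes, and it was Thy1. The ratio of Thy1 was 0.81 at the lowest, 1.28 at the median and 1.81 at the highest on P12 (mean 1.26 ± 0.28, SD, n = 12), and 1.41, 1.93 and 2.16 on P17 (mean 1.83 ± 0.28, SD, n = 12). All 12 mice of P17 were above the P12 median. Thy1 rose by 0.56 (SE 0.11, 1.48-fold, adjusted p = 0.000389), remained called in all 24 fits with 1 array of either group left out, and was higher on P17 on all 7 slides that held both control groups.

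Nefh was the other member that rose over these days, but only in some readouts. The retina channel signal of its brighter probe was 9.98 to 11.09 (median 10.55) on P12 and 10.73 to 11.51 (median 11.22) on P17, a rise of 0.63 (SE 0.08, adjusted p = 3.43e-08), while the log2 ratio gave 0.39 (adjusted p = 0.11). The reference channel of the same probe went from a mean of 6.621 to one of 6.805, which was not called. The second Nefh probe went from a retina channel mean of 7.549 to one of 7.785 and was not called. In the retina channel 2 of 13 member probes were called, the brighter Nefh probe and Thy1, against 3.18% of all probes. Of the 27 further ganglion cell genes, Nrn1 rose (0.50, adjusted p = 0.0221) and Gap43, a growth cone protein, fell (-0.60, adjusted p = 0.0418) in the log2 ratio.

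From P17 to P28, 5 of 13 member probes were called in control mice, 3 higher and 2 lower, but 13.4% of all probes were called in this comparison and array brightness differed strongly between the days. The reference channel, put through the same limma test for this step, had 1 of the 13 probes called, higher (adjusted p = 0.027). There 5 reached an unadjusted p under 0.05, and differences were negative for 2, with a median of 0.04. The part of the reference in the age differences of the ratio was not tested. The balance of directions depended on the scaling. The retina channel gave 3 higher and 2 lower (15.1% of all probes called), but the deposited ratio gave 1 higher and 3 lower (19.7%). Over the 13 probes the median difference was 0.15 in the log2 ratio, -0.29 in the deposited ratio and -0.32 with an offset of 0. It was 0.13 without background subtraction, 0.02 with the slide as a block and -0.36 for the deposited ratio with the slide. The medians over all probes in these settings lay between -0.034 and 0.014. With array weights 7 of the 13 were called higher and 4 lower, where 35.8% of all probes were called. Nefm rose by 0.83 (SE 0.22, adjusted p = 0.00697), from a median of 0.87 (0.43 to 1.77) to one of 2.10 (1.04 to 2.66). Slc17a6 rose by 0.72 (SE 0.23, adjusted p = 0.0261), from a median of 0.84 (0.31 to 2.17) to one of 2.11 (0.98 to 2.68). All 14 mice of P28 were above the P17 median for both genes, and the ranges overlapped.

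Sncg fell by 0.64 (SE 0.20, adjusted p = 0.0203), from a median of 2.66 (1.54 to 2.91) to one of 1.52 (1.30 to 2.71), and Thy1 fell by 0.32 (SE 0.10, adjusted p = 0.0278). The fall of Thy1 was seen in the ratio, where it was negative on 5 of 6 slides, but the retina channel gave -0.12 (adjusted p = 0.455) with a negative difference on 3 of 6 slides. The fifth was a dim Rbpms probe, above background on 30 of 77 arrays, which was higher by 0.15 (adjusted p = 0.0182), while the brightest Rbpms probe differed by -0.35 (adjusted p = 0.0769), so that the probes of this gene disagreed in sign. Sncg was lower on P28 on all 6 slides that held control mice of both days, and Slc17a6 was higher on all 6.

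With brightness as a covariate, 0 of the 13 probes were called from P17 to P28, where 12.1% of all probes were, and the lowest adjusted p among the members was 0.0967. The differences then were 0.18 for Nefm, 0.00 for Slc17a6, -0.03 for Sncg and -0.11 for Thy1. Brightness and age run together in these arrays and cannot be told apart. The deposited ratio of Nefm gave -0.14 (adjusted p = 0.747). The calls also rested in part on single arrays: Slc17a6 lost its call without retina_8 or retina_76 of P17 or retina_37 of P28, with an adjusted p of up to 0.0591, and Thy1 without retina_76, retina_146, retina_205, retina_274 or retina_279 of P17 or retina_112 or retina_236 of P28, with one of up to 0.0565.

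Between mice of the same group the members did not vary as 1 block. Pearson correlations of the 45 pairs of genes, over 77 arrays with group means removed, ranged from -0.88 to 0.96, with a median of 0.14. The median was 0.34 in the retina channel and 0.07 in the deposited ratio, in which 15 and 17 of the 45 pairs, respectively, had the other sign; Pou4f1 and Pou4f2, at 0.59 in the log2 ratio, had r = -0.34 and -0.74 there. By permutation within groups, 22 pairs were positively and 15 negatively correlated at a Benjamini-Hochberg adjusted p under 0.05. The permutations did not take slides into account, and 6 of the 45 pairs had the other sign once slide means were removed as well. The closest pair was Nefm and Slc17a6 (r = 0.96, Spearman coefficient 0.96, permutation p = 1e-05 for both, the smallest that 100000 permutations can give, adjusted 1.55e-05 for r and 1.61e-05 for the Spearman coefficient). Pou4f2 and Slc17a6 followed (r = 0.94, Spearman 0.96, permutation p = 1e-05 for both), and with the 2 arrays farthest from the median removed they gave r = 0.94.

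A second group ran against the first. Sncg and Rbpms, read from its brightest probe alone, correlated positively (r = 0.84, Spearman 0.81, permutation p = 1e-05 for both). Each correlated negatively with Slc17a6 (r = -0.82 for Sncg and -0.83 for Rbpms, permutation p = 1e-05 for both). These relations were weaker, with the same sign, once slide means were removed as well (0.55, -0.50 and -0.48) and in the retina channel (0.83, -0.41 and -0.55). For Nefm and Slc17a6 the corresponding values were 0.92 and 0.82. The deposited ratio gave 0.55 for Nefm and Slc17a6, but -0.47 for Nefl and Slc17a6, which had r = 0.73 in the log2 ratio. Pairs were not computed for the dimmer Rbpms probes, which are assigned to another transcript of the gene.

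Array brightness was correlated with the members' log2 ratios in both directions. Of the 10 genes, Slc17a6 (r = 0.86, Spearman 0.85), Pou4f2 (r = 0.81, Spearman 0.83), Nefm (r = 0.79, Spearman 0.78), Isl2 (r = 0.74, Spearman 0.75), Nefl (r = 0.55, Spearman 0.58) and Pou4f1 (r = 0.49, Spearman 0.43) had a higher log2 ratio on brighter arrays. Sncg (r = -0.85, Spearman -0.86), Rbpms (r = -0.77, Spearman -0.75) and Thy1 (r = -0.57, Spearman -0.56) had a lower one, and Nefh had r = -0.13 (Spearman -0.16, permutation p = 0.272 for r). Each of the other 9 had a permutation p of 1e-05 for r, the smallest possible, and an adjusted p of 1e-05 over these 10 relations. With the 2 arrays of most extreme brightness removed, r was 0.82 for Slc17a6 and -0.84 for Sncg. Not all of these signs held in the other readouts. For Pou4f1 r was -0.61 in the retina channel and -0.84 in the deposited ratio, for Nefl 0.14 and -0.81, and for Nefh 0.31 and -0.92. Nefm (0.46 and 0.14), Isl2 (0.42 and 0.19), Slc17a6 (0.57 and 0.71) and Pou4f2 (0.53 and 0.70) stayed positive in both, and Sncg (-0.76 and -0.91), Rbpms (-0.68 and -0.63) and Thy1 (-0.51 and -0.64) stayed negative. The part of brightness in the correlations between genes was not tested further.

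**Figure D5:**
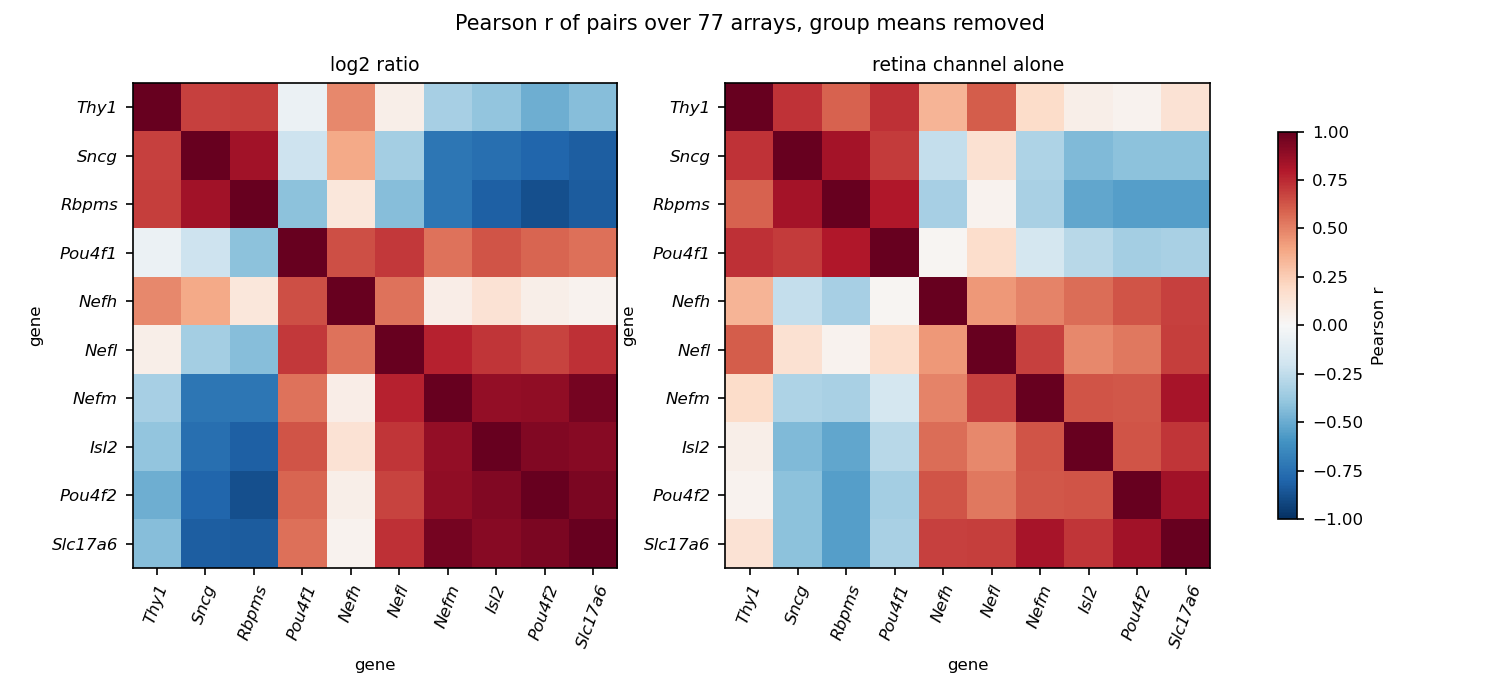
Colours give the Pearson r of each pair of genes over 77 arrays after the mean of each group was removed, for the log2 ratio on the left and the retina channel on the right. Nefm, Isl2, Pou4f2 and Slc17a6 form a positive block in both, and Sncg and Rbpms are negative against it.

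The genes most like the set were found by their correlation with the mean of the 10 standardised members, over 77 arrays with group means removed. Among 21144 genes, whose median r was 0.04, the highest were Adora1 (r = 0.88), which encodes the adenosine A1 receptor, Jph3 (0.88), a neuronal junctophilin, Rell2 (0.87), Ccdc184 (0.87) and Tubg2 (0.86), a gamma-tubulin. Their P17 differences in the log2 ratio were between -0.59 for Rell2 and -0.21 for Tubg2. Of the members themselves Nefl was nearest to the mean (0.92), while Thy1 (0.25), Sncg (-0.15) and Rbpms (-0.30, brightest probe) lay apart from it. Each of these genes is part of the mean, which raises its r, so these values do not compare with those above. The dimmer Rbpms probes, which are not part of the mean, had r = 0.08 and 0.26. All of these values share libraries and array brightness and are given as a description.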

How the data were processed

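The measurements were made on SurePrint G3 Mouse Gene Expression 2-colour arrays, 1 per mouse, on 11 slides in 4 scan sessions. Per the file headers, the authors read them with Agilent Feature Extraction (version 10.7.3.1), which gave median intensity and background intensity per spot and channel. The authors also deposited 1 log2 ratio per probe, which equalled log2 of processed Cy3 over processed Cy5 within 0.001 for 100% of single-spot probes, with column medians of -0.127 to 0.00993 and no centring or offset. Its deposited scale and its Cy3 over Cy5 direction were settled by this match, while the dyes in the labels were not followed.

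From the deposited intensity, normexp background correction with an offset of 50 and loess within arrays were computed in limma (version 3.58.1, R 4.3.3). Control spots and outlier spots (0.592% to 0.951% per array) were left out and spots of a probe averaged. The offset keeps dim probes from giving extreme ratios and shrinks their differences. Differences between the oxygen groups were fitted per day, those between days in 1 fit of 6 groups. The retina channel was quantile normalised after the same background correction. Arrays carry no counts, so the number of mice limits the precision. Scripts were tested on simulated data.

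Probe symbols were taken through transcript identifiers from RefSeq (GRCm38.p6), which named 28026 of 55681 probes. All 10 members were described by every probe. For other lists at most 2 rises and 2 falls per comparison were named, and the 5 genes most like the members. Members and lists were chosen with earlier results of these data known. Alternatives were 9 other settings planned and 4 added, and each array left out in turn for 3 comparisons and for the retina channel on P17. Correlations used Python (version 3.11.15) permutations within groups (100000). No mouse number occurred in more than 1 group, so arrays were compared unpaired.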

Additional observations from a re-analysis of the deposited data

How the results depend on the processing

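On P12 and P28 no setting called a member. Of the 13 member probes, the log2 ratio called 1 on P17 (1.13% of all probes). That count became 0 with an offset of 0 or 1 fit of all 6 groups, 2 with the slide as a block, array weights or bright probes only, and 5 in the retina channel alone (3.1%). Among settings chosen after seeing the data it was 2 for the deposited ratio with the slide as a block, 5 with brightness as a covariate (3.85%), and 6 in the retina channel with the slide as a block or with brightness. From P12 to P17 in control mice, the count of 1 (1.28%) became 2 in the retina channel alone (3.18%), with the slide as a block, array weights, bright probes only or the deposited ratio with the slide as a block, 3 in the retina channel with brightness and 4 with the slide there. The last 3 of these settings each included 1 lower call, Isl2 (-0.89, -0.26 and -0.33). From P17 to P28 the 5 calls (13.4%) became 11 with array weights (35.8%), 7 with the slide as a block or bright probes only, 6 with trend and robust or the deposited ratio with the slide, 4 in the deposited ratio (19.7%), 0 with brightness (12.1%) and 1 in the retina channel with brightness. The change of the OIR effect, with 0 calls (0.48% from P12 to P17 and 0.278% from P17 to P28), gave 1 (P12 to P17) and 2 (P17 to P28) in the retina channel (1.76% and 1.04%), 1 and 1 with the slide there, and 3 and 1 with brightness there. With 1 array left out, the counts ran from 0 to 2 (P17), 1 to 2 (P12 to P17) and 4 to 8 (P17 to P28). The percentages are the share of all probes called in the same setting, which is not given for the other settings. A setting that calls more probes can call more members, so a larger count is not a measure of support for the members.

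Signs turned for 24 of the differences recomputed for single genes. On P17 these were Nefl (0.15), Nefh (0.0363) and Pou4f1 (0.0440) in the deposited ratio, Isl2 in it with the slide as a block (0.17), Pou4f1 in the retina channel (0.0596, 0.0268 with the slide and 0.0340 with brightness), and Sncg with the slide as a block (-0.00087), in the retina channel with the slide (-0.13) and with brightness (-0.0529). From P17 to P28 Pou4f1, at 0.02 in the log2 ratio, was -0.79 in the deposited ratio, -0.64 there with the slide, -0.66 with an offset of 0, -0.16 without background subtraction, -0.14 in the retina channel, -0.0578 there with the slide, -0.11 with the slide as a block and -0.17 with brightness. Nefm was -0.14 in the deposited ratio and -0.36 there with the slide, Thy1 was 0.0682 in the retina channel with brightness, and the brightest Rbpms probe was 0.0361 with brightness. The change of the OIR effect on Nefh from P17 to P28 was -0.23 in the deposited ratio and -0.14 with an offset of 0. The cause of these turns was not tested. No paired analysis was possible because no mouse number was shared between groups. Signals near background in the reference limit the ratios of Pou4f2, Slc17a6, Isl2, Nefm and Nefl.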
